A study of Mus musculus with 36 samples.

Results

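The genes described here encode 9 C-type lectin receptors of myeloid cells, namely Clec7a, Clec4n, Clec4d, Clec4e, Clec5a, Clec4a1, Clec4a2, Clec4a3 and Clec12a. They were taken by symbol from the 27562 genes with FPKM (fragment counts scaled for exon length and for the mapped fragments of the library), and each was followed through all 36 libraries. The libraries were made from cells sorted from the lungs of chimeric mice. These mice spent 4-weeks or 32-weeks in chambers with concentrated ambient PM2.5 or filtered air (FA). The libraries form 12 groups of 3. By the paper, 3 mice of each exposure and time point were picked for sequencing, so groups of different sorted cells may share mice. In every group the recipients were male C57BL/6J mice (CD45.2) that were irradiated with the chest shielded by lead, given busulfan, and transplanted with marrow of B6.SJL-Ptprca Pepcb/BoyJ donors (CD45.1). Alveolar macrophages (AΦ) were sorted as CD64+ CD11c high CD11b low cells and monocytes as Ly6G- MHC II- CD64 low CD11b high cells. CD45.2 AΦ are the tissue-resident cells of the host (TR-AΦ) and CD45.1 AΦ are cells derived from the donor marrow (BM-AΦ). At 4-weeks only CD45.2 cells were sequenced, so the groups were TR-AΦ and CD45.2 monocytes of FA and of PM2.5 mice, and at 32-weeks TR-AΦ, BM-AΦ, CD45.2 monocytes and CD45.1 monocytes of FA and of PM2.5 mice. A CD45.2 monocyte in these mice is of host origin. Monocyte labels of the 32-weeks mice carry a number, 1 or 2. The same numbers mark CD45.1 and CD45.2 in AΦ, and they were taken to mean the same in monocytes, which no label states.

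C-type lectin receptors bind carbohydrates, lipids and products of dying cells at the surface of phagocytes. Clec7a (Dectin-1, the receptor for fungal beta-glucan) carries its own activating motif and signals through the kinase Syk, while Clec4n (Dectin-2, a receptor for fungal mannans), Clec4e (Mincle, a receptor for mycobacterial and fungal glycolipids) and Clec4d (MCL, its partner) signal through the adaptor FcRγ, encoded by Fcer1g. Clec5a couples to the adaptor DAP12, encoded by Tyrobp, whereas Clec4a2 (DCIR) and Clec12a (MICL, a receptor for uric acid crystals) carry inhibitory motifs that recruit phosphatases such as the product of Ptpn6, and Clec4a1 and Clec4a3 are relatives of DCIR. In AΦ these receptors take part in the recognition of inhaled fungi and mycobacteria.

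All 9 genes lie on chromosome 6 of the mm10 genome. Clec4a1, Clec4a3, Clec4a2, Clec4n, Clec4d and Clec4e sit in 1 stretch of 368 kb, from 122921848 to 123289870, in which Clec4d on the plus strand and Clec4e on the minus strand end 6.52 kb apart. Clec12a and Clec7a span 123 kb together, 6.06 Mb further along, and Clec5a stands alone from 40574894 to 40585803. The relatives Clec4a4, Clec4b1 and Clec4b2 belong to the same stretch. The FPKM of Clec4a1, Clec4a2 and Clec4a3 are uncertain to the extent that reads were shared with them, and the likeness of the sequences was not measured. The GENCODE annotation vM21 calls Clec7a a polymorphic pseudogene and the other 8 genes protein coding.

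RefSeq start sites (GRCm38.p6) were matched for 8 of the 9 genes. The 250 bases before the start are printed for the neighbours whose levels differed in opposite ways or to different degrees between AΦ and monocytes, from the 5′ to the 3′ end of each gene's own strand, with Clec4e at chr6:123289872-123290121 on the minus strand, Clec4d at chr6:123261857-123262106 on the plus strand, Clec4a1 at chr6:122921598-122921847 on the plus strand, Clec4a3 at chr6:122952394-122952643 on the plus strand, Clec4a2 at chr6:123122440-123122689 on the plus strand, Clec7a at chr6:129472780-129473029 on the minus strand and Clec12a at chr6:129349994-129350243 on the plus strand. For Clec4a3 the later of its RefSeq starts is shown. Capitals mark matches on either strand to the core bound by PU.1 and other ETS factors, GAGGAA, and to the motifs of C/EBP, AP-1 and the TATA box, which are spelled out with their counts after the sequences.
Clec4e: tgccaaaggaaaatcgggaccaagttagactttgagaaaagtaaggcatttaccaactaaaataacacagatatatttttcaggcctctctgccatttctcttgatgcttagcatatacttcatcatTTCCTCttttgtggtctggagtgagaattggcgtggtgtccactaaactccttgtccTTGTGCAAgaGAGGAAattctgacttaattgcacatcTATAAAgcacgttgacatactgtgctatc
Clec4d: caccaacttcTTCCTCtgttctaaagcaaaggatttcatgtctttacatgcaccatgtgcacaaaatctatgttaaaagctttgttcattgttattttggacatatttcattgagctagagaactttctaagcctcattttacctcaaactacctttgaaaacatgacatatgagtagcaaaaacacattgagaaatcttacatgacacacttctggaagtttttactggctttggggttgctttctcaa
Clec4a1: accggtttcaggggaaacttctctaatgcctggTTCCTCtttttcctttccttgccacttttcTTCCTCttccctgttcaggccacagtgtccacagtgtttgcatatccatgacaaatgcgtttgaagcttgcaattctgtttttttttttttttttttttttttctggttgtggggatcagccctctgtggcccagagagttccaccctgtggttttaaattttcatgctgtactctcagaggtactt
Clec4a3: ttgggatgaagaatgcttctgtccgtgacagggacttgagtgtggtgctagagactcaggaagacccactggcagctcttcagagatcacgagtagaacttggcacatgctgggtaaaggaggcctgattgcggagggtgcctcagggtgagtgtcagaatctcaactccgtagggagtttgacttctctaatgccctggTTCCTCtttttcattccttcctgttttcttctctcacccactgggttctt
Clec4a2: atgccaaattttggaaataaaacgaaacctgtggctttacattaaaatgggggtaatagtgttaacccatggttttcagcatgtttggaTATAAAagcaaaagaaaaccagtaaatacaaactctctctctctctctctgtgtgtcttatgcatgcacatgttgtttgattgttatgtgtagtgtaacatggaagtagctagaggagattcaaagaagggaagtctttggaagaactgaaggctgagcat
Clec7a: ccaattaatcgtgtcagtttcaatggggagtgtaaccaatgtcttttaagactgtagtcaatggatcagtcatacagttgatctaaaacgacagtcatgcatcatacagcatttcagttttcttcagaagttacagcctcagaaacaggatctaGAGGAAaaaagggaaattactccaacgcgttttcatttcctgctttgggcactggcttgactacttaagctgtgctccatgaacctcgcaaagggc
Clec12a: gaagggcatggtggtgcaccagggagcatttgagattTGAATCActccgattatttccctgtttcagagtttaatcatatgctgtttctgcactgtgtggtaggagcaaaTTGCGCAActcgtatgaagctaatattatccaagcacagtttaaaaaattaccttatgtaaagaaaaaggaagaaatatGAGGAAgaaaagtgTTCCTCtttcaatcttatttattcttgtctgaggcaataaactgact

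GAGGAA was found before a start of 7 of the 8 genes, while 23.3% of 32851 RefSeq promoter windows of the same length hold it. The share is per window, whereas a gene with several starts was counted if any of its windows held a match. Clec4a3 has a match only before its later start, and Clec4a2 has none. The C/EBP motif, TTGCNNAA, was found in 2 genes (9.56% of all windows), Clec4e at 66 bases and Clec12a at 140 bases before the start. The AP-1 motif, TGANTCA, was found in Clec12a (6.75% of all windows). The TATA box motif, TATAAA, was found in Clec4a2, Clec4e and Clec5a (12.4% of all windows). The match of Clec4e lies 29 bases before the start. That of Clec4a2 lies 161 bases before it, and that of Clec5a 209 bases before it on the opposite strand. In none of the windows did matches of different motifs overlap. Clec4a1 and Clec4a3 shared a run of 17 bases that holds a GAGGAA match, 222 bases before the start of Clec4a1 and 55 bases before that of Clec4a3. A match is a description of the sequence and not a binding site.

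The labels were checked against marker genes. The summed FPKM of 12 AΦ markers was 6278 to 13935 in the AΦ libraries and 279 to 1572 in the monocyte libraries, and that of 8 classical monocyte markers was 1059 to 3452 in monocytes and 127 to 421 in AΦ. Libraries carry the numbers 0, 1 and 2 in each group, and 2 monocyte libraries stood apart. The 4-weeks monocyte libraries numbered 2 had 410 (FA) and 1159 FPKM (PM2.5) of 10 neutrophil markers, against 33.1 to 123 in the other monocyte libraries, although Ly6G+ cells were gated out. CD45.2 monocytes at 32-weeks had 1079 to 4115 FPKM of 8 interstitial macrophage markers, against 107 to 601 at 4-weeks. The part of these cells in the results was not tested, and values without the 2 libraries are given where they bear on a result. In bulk RNA, fewer cells of a type and less RNA per cell cannot be told apart. The libraries numbered 2 were the highest of their 3 in 10 of 12 groups for Clec4a1, Clec4a3, Clec7a and Clec12a, and in 6 to 8 groups for the other 5 genes, whereas 6.84% of 13307 genes were highest in the library numbered 2 in at least 10 groups. The labels do not say what libraries with the same number share. FPKM carry no depth, so no counting error can be given. None of the 324 values of these genes was 0, and they ran from 0.199 to 866 FPKM.

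**Figure D1:**
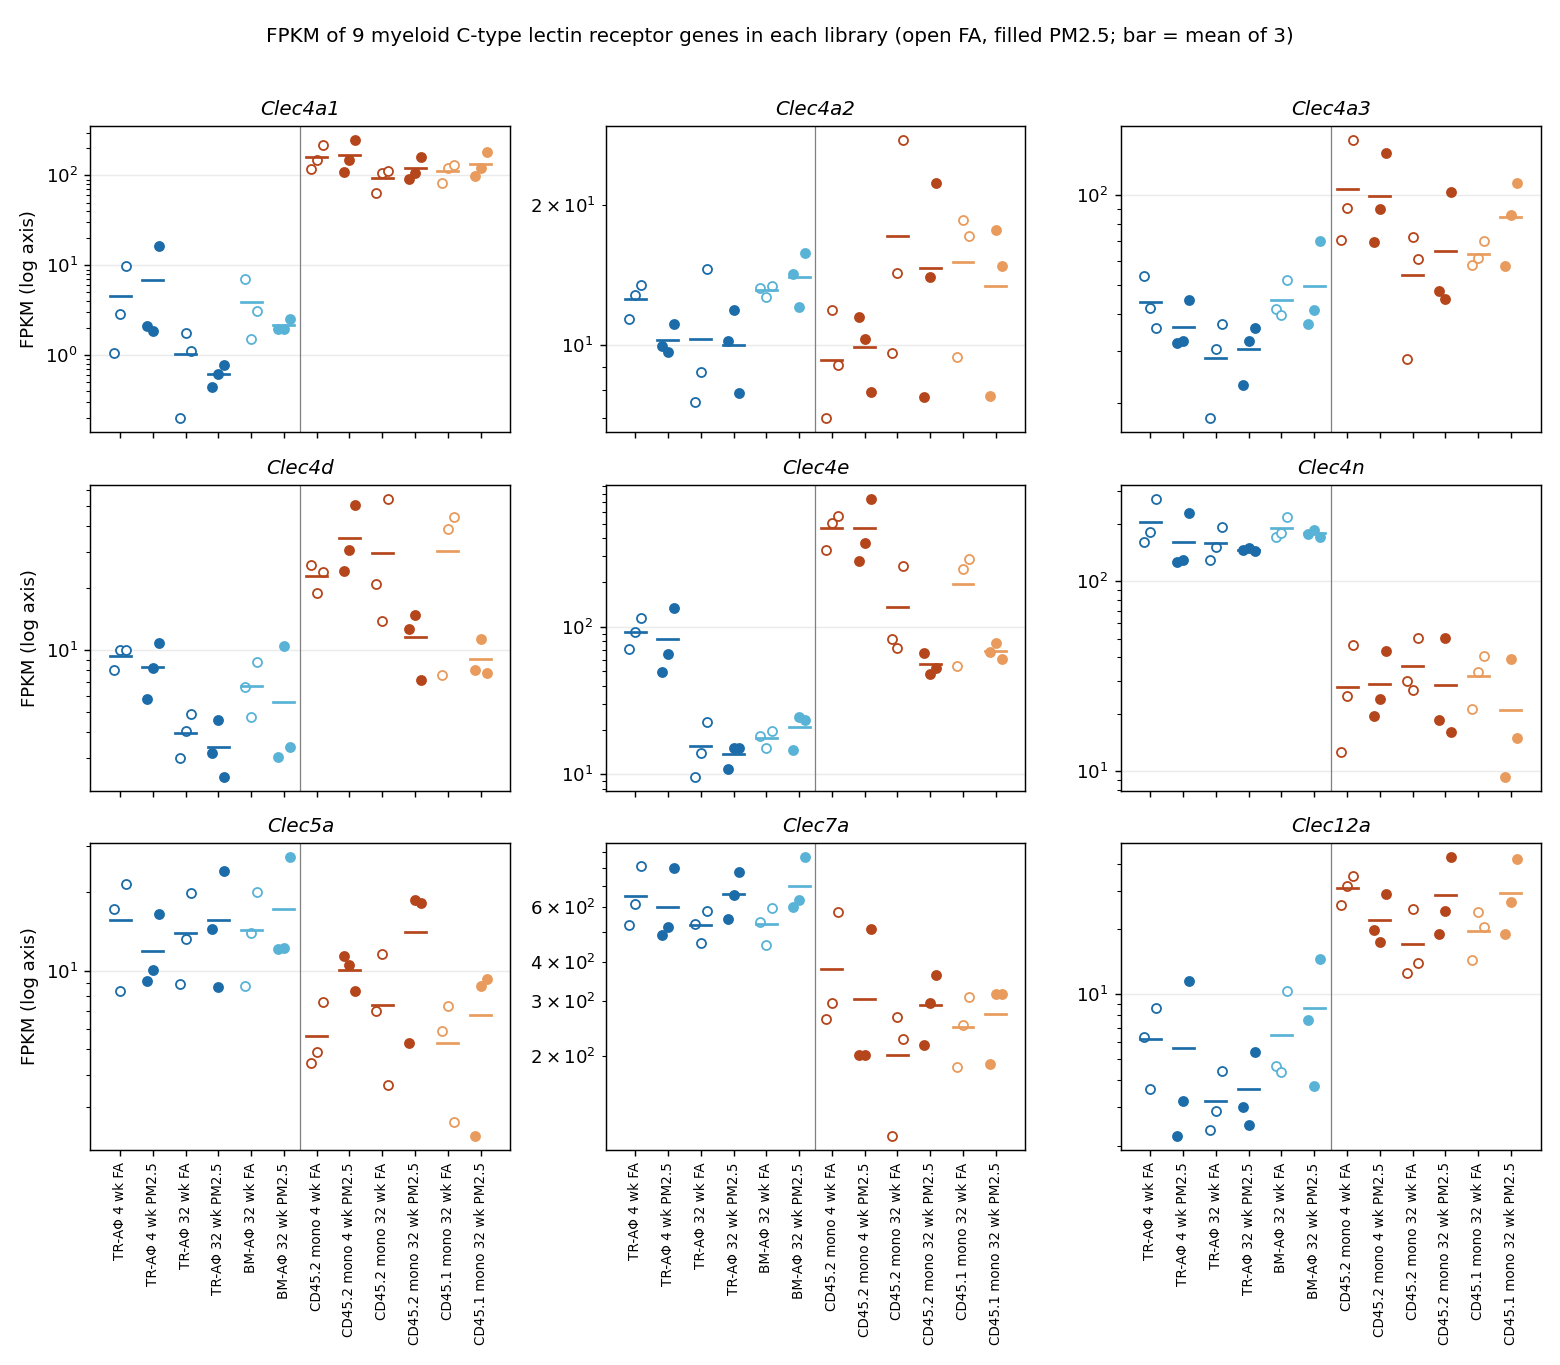
FPKM (y axis, logarithmic, with a scale of its own in each panel) of each of the 9 genes in the 36 libraries, by group (x axis), with AΦ in blue, monocytes in orange, FA as open points, PM2.5 as filled points and bars at the mean of 3 libraries. Clec4a1 and Clec4n separate AΦ from monocytes in every library, and Clec4e lies at 49.2 to 135 FPKM in AΦ at 4-weeks and at 9.57 to 24.6 at 32-weeks.

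To find how AΦ and monocytes of the same origin and time point differed, TR-AΦ were compared with CD45.2 monocytes at 4-weeks and at 32-weeks and BM-AΦ with CD45.1 monocytes at 32-weeks, with FA and PM2.5 libraries averaged, so that 6 libraries stood against 6. AΦ were higher in the receptors of beta-glucan and fungal mannans, Clec7a and Clec4n, and lower in Clec4e, Clec4d, Clec12a, Clec4a1 and Clec4a3. These 7 genes passed the threshold (limma, adjusted p under 0.05) in the same direction in all 3 comparisons. The 2 monocyte libraries with the neutrophil markers held the highest 4-weeks monocyte value of each exposure for all of them but Clec4d. Without both libraries the same 7 genes passed at 4-weeks. At 4-weeks 2 genes were higher and 5 lower in AΦ (48.2% of all genes tested passed, 22.6% higher and 25.5% lower), at 32-weeks in CD45.2 cells again 2 and 5 (47.3%, 23.6% higher and 23.7% lower), and in CD45.1 cells 3 and 5 (50.9%, 27.1% higher and 23.8% lower). The median log2 difference over the 9 genes was -1.28, -0.92 and -0.64 in the 3 comparisons, against -0.02, 0 and 0.03 over all genes. The 3 comparisons have no library in common, but cells of the same mice may stand on both sides, which the labels do not tell. All log2 differences are of log2(FPKM + 1), which understates the change of genes with low values.

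Clec7a was the most abundant of the receptors in all AΦ libraries. In TR-AΦ at 4-weeks its FPKM was 525, 613 and 814 in FA mice and 489, 516 and 800 in PM2.5 mice, and in CD45.2 monocytes 262, 296 and 578 in FA mice and 201, 202 and 510 in PM2.5 mice. The 2 highest monocyte libraries are those with the neutrophil markers, and only they reached into the range of the AΦ. The log2 difference was 0.97 (SE 0.251, adjusted p = 0.0021), and it was 1.37 (adjusted p = 2.14e-05) without both libraries. At 32-weeks TR-AΦ had 460 to 777 FPKM and CD45.2 monocytes 111 to 364, with no overlap and a log2 difference of 1.33 (SE 0.251, adjusted p = 7.75e-05). BM-AΦ had 453 to 866 FPKM and CD45.1 monocytes 184 to 316, again with no overlap, and the difference was 1.24 (SE 0.251, adjusted p = 0.000162).

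Clec4n was the gene whose level was furthest above that of monocytes in AΦ. In TR-AΦ it was at 162, 183 and 273 FPKM (FA) and 126, 129 and 230 (PM2.5) at 4-weeks, and at 129, 152 and 194 (FA) and 147, 149 and 144 (PM2.5) at 32-weeks. BM-AΦ had 171, 180 and 219 (FA) and 178, 187 and 172 FPKM (PM2.5). CD45.2 monocytes had 12.7, 25 and 46.1 (FA) and 19.5, 24 and 43 (PM2.5) at 4-weeks, then 29.7, 26.7 and 50.5 (FA) and 18.7, 50.4 and 16.1 (PM2.5) at 32-weeks, and CD45.1 monocytes had 21.2, 33.5 and 40.3 (FA) and 9.32, 39 and 15 (PM2.5). The lowest AΦ library, at 126 FPKM, was above the highest monocyte library, at 50.5 FPKM. The mean in AΦ was 6.48 times that in monocytes at 4-weeks (log2 difference 2.72, SE 0.315, adjusted p = 4.1e-08), 4.76 times for CD45.2 cells at 32-weeks (2.33, adjusted p = 6.11e-07) and 6.99 times for CD45.1 cells (2.92, adjusted p = 1.29e-08).

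Its neighbour Clec4e, which uses the same adaptor, went the other way. At 4-weeks TR-AΦ had 71, 91.6 and 114 FPKM (FA) and 49.2, 65.6 and 135 (PM2.5), whereas CD45.2 monocytes had 331, 503 and 563 (FA) and 281, 373 and 742 (PM2.5). Every monocyte library was above every AΦ library, with a log2 difference of -2.40 (SE 0.351, adjusted p = 2.03e-06). At 32-weeks the difference was -2.43 in CD45.2 cells (adjusted p = 1.76e-06) and -2.39 in CD45.1 cells (adjusted p = 2.2e-06), also with no overlap. Within a library, Clec4n was 1.71 to 13.6 times Clec4e (median 8.92) in the 18 AΦ libraries and 0.0384 to 1.05 times (median 0.168) in the 18 monocyte libraries. Clec4d, the partner of Clec4e, was lower in AΦ, with a log2 difference of -1.57 at 4-weeks (SE 0.346, adjusted p = 0.000426), -1.95 in CD45.2 cells at 32-weeks (adjusted p = 3.26e-05) and -1.24 in CD45.1 cells (adjusted p = 0.00396). Its range was 2.43 to 10.8 FPKM in AΦ and 7.18 to 54.4 in monocytes, and in every library Clec4e was the higher of this pair, by 2.24 to 26.5 times.

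Clec5a, the receptor coupled to DAP12, was at 8.37 to 27.2 FPKM in AΦ and 2.33 to 18.7 in monocytes. BM-AΦ were higher than CD45.1 monocytes (log2 difference 1.29, SE 0.355, adjusted p = 0.00351), with means of 15.7 and 6.04 FPKM. In CD45.2 cells no difference passed the threshold, with 0.73 at 4-weeks (95% interval -0.00093 to 1.46, adjusted p = 0.094) and 0.55 at 32-weeks (-0.18 to 1.28, adjusted p = 0.215). The first of these passed without library 1 of TR-AΦ of FA mice (0.91, adjusted p = 0.0445) and in a model of only the libraries compared (0.73, adjusted p = 0.0348).

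Of the DCIR relatives, Clec4a1 gave the largest difference of the 9 genes in each of the 3 comparisons. TR-AΦ had 1.06, 2.87 and 9.9 FPKM (FA) and 2.10, 1.85 and 16.5 (PM2.5) at 4-weeks and 0.199, 1.78 and 1.11 (FA) and 0.45, 0.627 and 0.773 (PM2.5) at 32-weeks. CD45.2 monocytes had 117, 148 and 218 (FA) and 110, 148 and 249 (PM2.5) at 4-weeks and 63.2, 106 and 113 (FA) and 91.9, 107 and 160 (PM2.5) at 32-weeks. The AΦ never came near the monocytes, and the mean in TR-AΦ was 0.0346 times that in monocytes at 4-weeks (log2 difference -5.03, SE 0.395, adjusted p = 2.96e-11) and 0.00771 times at 32-weeks (-5.89, adjusted p = 1.64e-12). BM-AΦ, at 1.53 to 7.13 FPKM, were below CD45.1 monocytes at 81.8 to 184 (-5.02, adjusted p = 3.54e-11). The highest AΦ values, 9.9 and 16.5 FPKM, belong to the 4-weeks libraries numbered 2, which also had the highest sums of interstitial macrophage markers among TR-AΦ (249 and 680 FPKM, against 28.2 to 135 in the other 10) and of neutrophil markers (35.2 and 68.2 FPKM, against 12 to 23.2). The part of such cells in these values was not tested.

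Clec4a3 differed in the same direction but less. Its range was 17.8 to 69.9 FPKM in AΦ and 28.2 to 153 in monocytes, and the log2 difference was -1.29 at 4-weeks (SE 0.258, adjusted p = 0.000149), -0.92 in CD45.2 cells at 32-weeks (adjusted p = 0.00423) and -0.64 in CD45.1 cells (adjusted p = 0.0393). The last of these was lost in 8 of the 12 fits that left out 1 library each, namely libraries 0 and 1 of BM-AΦ and 1 and 2 of monocytes in either exposure (largest adjusted p = 0.105) and without the filter on low values (adjusted p = 0.0704). Within a library, Clec4a1 was 1.4 to 2.39 times Clec4a3 in monocytes and 0.0112 to 0.374 times in AΦ. Clec4a2, the relative with the inhibitory motif, did not pass the threshold in any of the 3 comparisons, with 0.24 (95% interval -0.25 to 0.72), -0.51 (-0.999 to -0.03, adjusted p = 0.0755) and -0.01 (95% interval -0.49 to 0.48). The second of these passed with a term for the libraries numbered 2 (adjusted p = 0.0488) and without library 2 of TR-AΦ of FA mice (adjusted p = 0.033) or library 0 of CD45.2 monocytes of FA (adjusted p = 0.0207) or PM2.5 mice (adjusted p = 0.0154). Clec4a2 was at 7.55 to 15.8 FPKM in AΦ and 6.97 to 27.6 in monocytes.

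Clec12a, the inhibitory receptor for uric acid crystals, was at 2.22 to 14.6 FPKM in AΦ and 12.6 to 43 in monocytes. It was lower in AΦ by log2 differences of -2.11 at 4-weeks (SE 0.321, adjusted p = 3.6e-06), -2.36 in CD45.2 cells at 32-weeks (adjusted p = 7.06e-07) and -1.64 in CD45.1 cells (adjusted p = 0.000117). The groups did not overlap in the CD45.2 cells at either time point and overlapped at 1 end in the CD45.1 cells, where the highest BM-AΦ library (14.6) was above the lowest monocyte library (14.4).

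**Figure D2:**
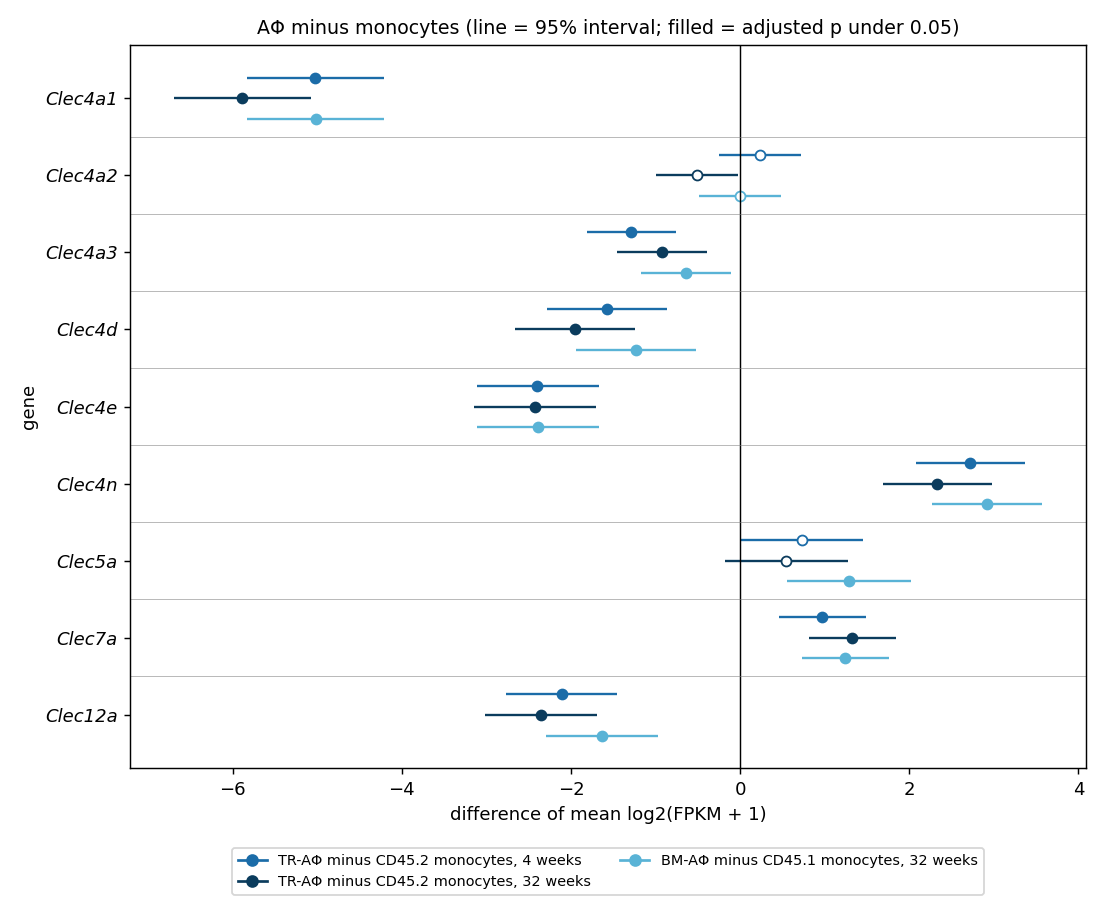
Difference of mean log2(FPKM + 1), AΦ minus monocytes (x axis), for each gene (y axis) in the 3 comparisons, each of 6 against 6 libraries, where points are the differences, lines their 95% intervals and filled points passed the threshold of limma. Clec4n and Clec7a lie to the right of 0, and Clec4a1 lies between -5.89 and -5.02.

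The receptors made up a different mixture in the 2 cell types. Clec7a gave 61.3% to 76.7% of the summed FPKM of the 9 genes in AΦ (median 66.7%) and 22.3% to 47.8% in monocytes (median 34.4%). Clec4n followed in AΦ with a median of 19.1%, and it had a median of 3.33% in monocytes. The mixture of monocytes differed between the time points. In CD45.2 monocytes at 4-weeks Clec4e had the highest median share, 39.9%, ahead of Clec7a (27.7%) and Clec4a1 (13.9%). At 32-weeks Clec7a had the highest median share, with 44.2% in CD45.2 and 41.3% in CD45.1 monocytes, followed by Clec4a1 (17.4% and 17.9%) and Clec4e (12.8% and 13.6%). Single libraries departed from this order, since the share of Clec4e ran from 6.68% to 31.9% in CD45.2 and from 7.96% to 31.2% in CD45.1 monocytes. In library 2 of CD45.2 monocytes of FA mice Clec4e (257 FPKM) was above Clec7a (226 FPKM). In AΦ of both time points together Clec4e had a median of 2.18% and Clec4a1 of 0.219%. The summed FPKM itself was 687 to 1301 in AΦ and 365 to 1778 in monocytes.

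**Figure D3:**
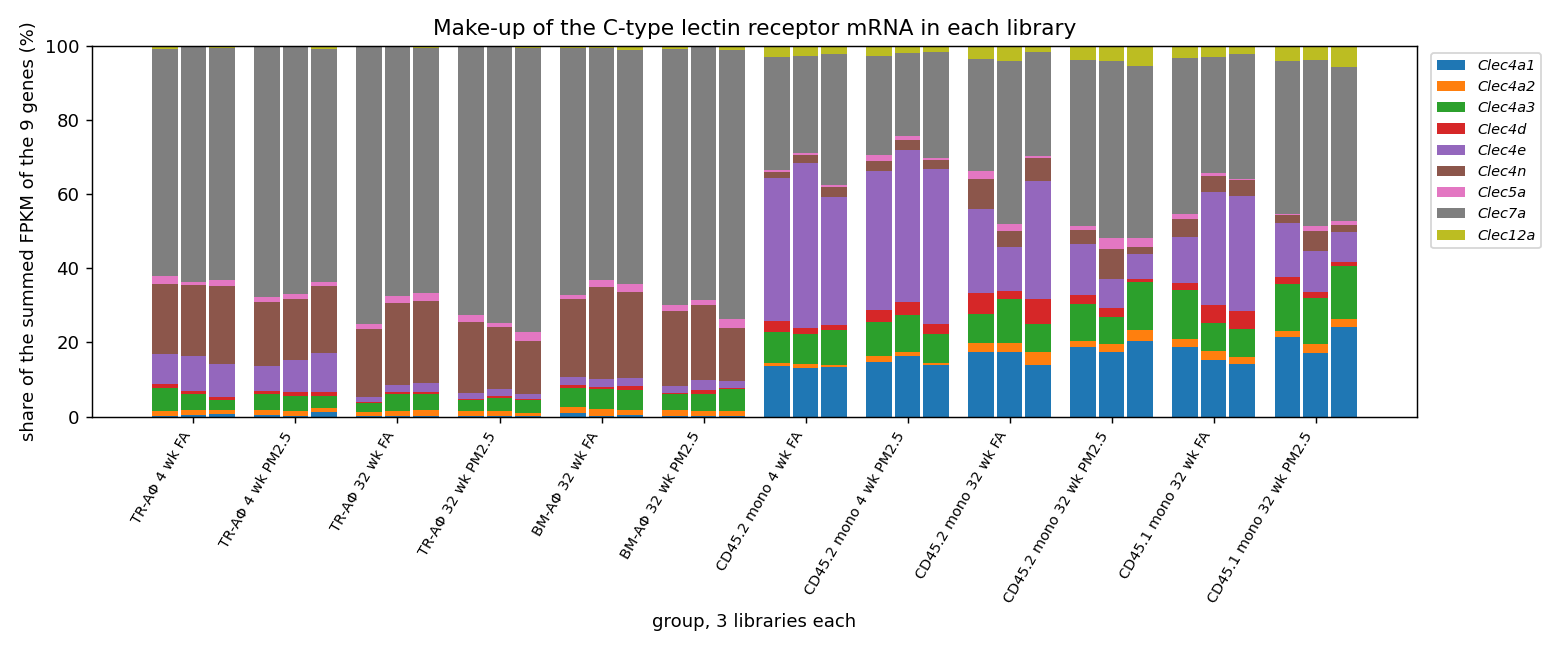
Share of the summed FPKM of the 9 genes (y axis, percent) that each gene gave in each of the 36 libraries (bars, 3 per group on the x axis). Clec7a (grey) makes up 61.3% to 76.7% of the AΦ bars, and Clec4a1 (blue) has a median of 16.8% in the monocyte bars and 0.219% in the AΦ bars.

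To separate time from exposure, 32-weeks libraries were compared with 4-weeks libraries within FA and within PM2.5 mice. Clec4e fell in TR-AΦ of both exposures and in CD45.2 monocytes of PM2.5 mice, and it was the 1 gene of the 9 that passed in each of these comparisons. Of all genes tested, 0.782% passed in TR-AΦ of FA mice, 1.05% in TR-AΦ of PM2.5 mice, 7.21% in CD45.2 monocytes of FA mice and 2.42% in those of PM2.5 mice. At 32-weeks Clec4e was at 9.57, 14 and 22.8 FPKM in TR-AΦ of FA mice and 10.8, 15.1 and 15 in those of PM2.5 mice, below every 4-weeks library. The mean in FA mice was 0.168 times that at 4-weeks (log2 difference -2.56, SE 0.352, adjusted p = 0.00435) and in PM2.5 mice 0.164 times (-2.41, SE 0.352, adjusted p = 0.00369). BM-AΦ, sequenced at 32-weeks only, were at 18.3, 15.1 and 19.7 (FA) and 14.6, 24.6 and 23.3 FPKM (PM2.5), within 9.57 to 24.6 FPKM for all 12 AΦ libraries of that time point. Both calls in TR-AΦ were kept without any 1 library, but neither passed in a model of only the 6 libraries compared (adjusted p = 0.119 in FA and 0.182 in PM2.5). Summed interstitial macrophage markers also moved in TR-AΦ, from 55.8 to 680 FPKM at 4-weeks (median 130) to 28.2 to 94.7 at 32-weeks (median 41.6), and their part was not tested.

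In CD45.2 monocytes of PM2.5 mice Clec4e was at 66.7, 48 and 52.4 FPKM at 32-weeks, below all 3 libraries at 4-weeks, and the log2 difference was -2.93 (SE 0.582, adjusted p = 0.0205). This call was lost without the 4-weeks library 1 or 2 or the 32-weeks library 1 or 2, with an adjusted p of up to 0.107, and without both 4-weeks libraries with the neutrophil markers (-2.53, adjusted p = 0.105). In FA mice it was at 82.6, 72.1 and 257 FPKM at 32-weeks, also below all 3 libraries at 4-weeks, with -1.97 (SE 0.582, adjusted p = 0.0556). Without the 32-weeks library 2, at 257 FPKM, the difference was -2.54 (adjusted p = 0.022). The change with time in TR-AΦ minus that in CD45.2 monocytes was -0.03 for Clec4e (95% interval -1.05 to 0.99, adjusted p = 0.987). Along with the change in Clec4e, the summed non-classical monocyte markers were 2276 to 4247 FPKM in CD45.2 monocytes at 4-weeks and 654 to 1669 at 32-weeks, and their part was not tested. Nr4a1 had the highest median of these markers over all monocyte libraries, 1062 FPKM (492 to 2397), so it weighs most in the sum. How each single marker moved with time was not followed. The mice of the 32-weeks groups were also older, and whether libraries of the 2 time points were made together is not stated, so exposure length, age and preparation cannot be told apart.

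No other gene of the 9 passed in these 4 comparisons, and 3, 3, 3 and 2 of them had an unadjusted p under 0.05, Clec4e included, against 12.1%, 15.2%, 20.8% and 16.1% of all genes tested. Groups did not overlap for 2 and 3 of the 9 genes in TR-AΦ of FA and of PM2.5 mice (15.6% and 18.3% of all genes) and for 3 and 2 in CD45.2 monocytes of FA and of PM2.5 mice (24.5% and 20.4%). These genes were Clec4e in all 4 comparisons and Clec4d, Clec4a1 or Clec12a. Clec4d in TR-AΦ was at 8.02, 10 and 9.99 FPKM (FA) and 5.82, 8.19 and 10.8 (PM2.5) at 4-weeks and at 3, 4.07 and 4.92 (FA) and 3.17, 4.59 and 2.43 (PM2.5) at 32-weeks. The log2 differences were -1.06 (adjusted p = 0.215) in FA and -1.07 (adjusted p = 0.163) in PM2.5 mice, and -1.51 (adjusted p = 0.188) in CD45.2 monocytes of PM2.5 mice. Clec4a1 had -1.74 in TR-AΦ of PM2.5 mice (adjusted p = 0.237), which was -0.88 without the 4-weeks library 2, and -0.77 in CD45.2 monocytes of FA mice (adjusted p = 0.24). Clec12a had -0.87 in CD45.2 monocytes of FA mice (adjusted p = 0.166). The median over the 9 genes was -0.65, -0.25, -0.77 and -0.13 in the 4 comparisons, against 0.01, 0.03, -0.05 and -0.03 over all genes.

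**Figure D4:**
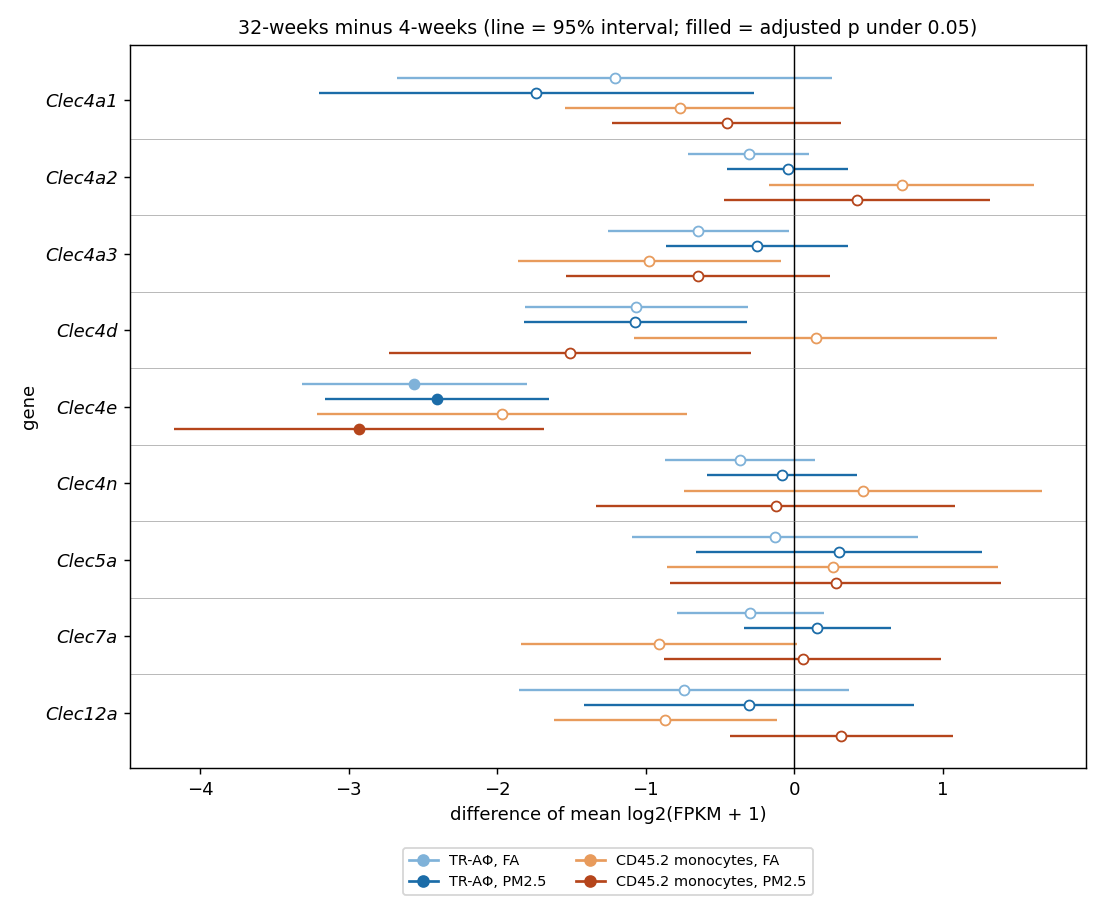
Difference of mean log2(FPKM + 1), 32-weeks minus 4-weeks (x axis), for each gene (y axis) in TR-AΦ and CD45.2 monocytes of FA and PM2.5 mice, 3 against 3 libraries each, where lines are 95% intervals and filled points passed the threshold of limma. The filled points are those of Clec4e, at -2.56 and -2.41 in TR-AΦ and -2.93 in monocytes of PM2.5 mice.

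To find the effect of exposure, PM2.5 was compared with FA in each of the 6 populations. None of the 9 genes passed the threshold of limma in any of the 6 comparisons, and 1 of the 54 tests had an unadjusted p under 0.05. Of all genes, 0.0079% passed in TR-AΦ at 4-weeks, 0% in TR-AΦ at 32-weeks, 0.0158% in BM-AΦ, 0.00778% in CD45.2 monocytes at 4-weeks, 0% in those at 32-weeks and 0% in CD45.1 monocytes. In the same order, the genes with an unadjusted p under 0.05 numbered 372, 396, 259, 272, 547 and 609. These were 2.94%, 3.13%, 2.05%, 2.12%, 4.25% and 4.74% of all genes tested. The test with the unadjusted p under 0.05 was Clec4d in CD45.1 monocytes (log2 difference -1.33, adjusted p = 0.946). Its FPKM was 7.62, 38.6 and 44.3 in FA mice and 8.03, 11.3 and 7.76 in PM2.5 mice, so that the lowest FA library was below all 3 of PM2.5.

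Groups did not overlap in 4 of the 54 comparisons. Over all genes this held for 5.82% in TR-AΦ at 4-weeks, 5.98% in TR-AΦ at 32-weeks, 6.44% in BM-AΦ, 6.57% in CD45.2 monocytes at 4-weeks, 6.39% in those at 32-weeks and 8.89% in CD45.1 monocytes, and 4 of 54 is near these shares. Clec7a in BM-AΦ was at 539, 453 and 596 FPKM in FA and 602, 630 and 866 in PM2.5 mice (log2 difference 0.39, SE 0.231, adjusted p = 1). Clec4e in CD45.2 monocytes at 32-weeks, at 72.1 to 257 FPKM in FA and 48 to 66.7 in PM2.5 mice, had -1.05 (SE 0.582, adjusted p = 1), and the difference was -0.48 without the FA library 2. Clec5a in CD45.2 monocytes at 4-weeks was higher in all 3 PM2.5 libraries (8.32 to 11.4 against 4.43 to 7.56 FPKM), with a log2 difference of 0.76 (SE 0.52, adjusted p = 1). Clec4a2 in TR-AΦ at 4-weeks was lower in all 3 (9.69 to 11.1 against 11.4 to 13.5 FPKM), with -0.27 (SE 0.191, adjusted p = 1). The 95% intervals leave room for sizeable changes, since that of Clec7a in TR-AΦ was -0.62 to 0.37 at 4-weeks and -0.17 to 0.82 at 32-weeks, and that of Clec4e in CD45.1 monocytes was -2.43 to 0.06.

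**Figure D5:**
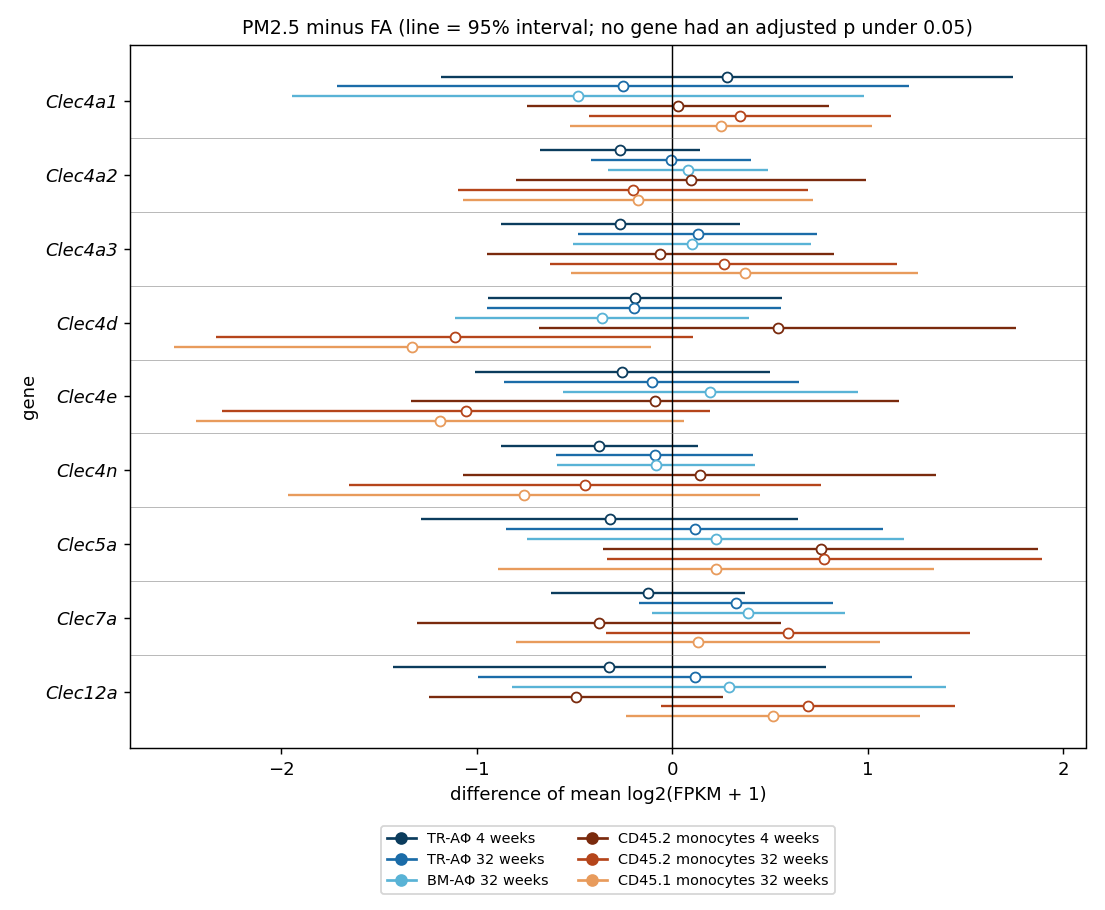
Difference of mean log2(FPKM + 1), PM2.5 minus FA (x axis), for each gene (y axis) in the 6 populations, 3 against 3 libraries each, with lines for 95% intervals. All points are open because no gene passed the threshold of limma, and the 1 interval that does not reach 0 is that of Clec4d in CD45.1 monocytes.

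To find how AΦ of the 2 origins differed, BM-AΦ were compared with TR-AΦ at 32-weeks, 6 against 6 libraries. Here and in the comparison of CD45.1 with CD45.2 monocytes, cells of the same mice may stand on both sides, which the labels do not tell. None of the 9 genes passed the threshold of limma (0.316% of all genes did), and 5 had an unadjusted p under 0.05, as did 7.45% of all genes. All 9 differences were positive, with a median of 0.42 against 0.02 over all genes. The share of positive differences over all genes was not counted. The 9 genes were measured in the same libraries, so their signs are not separate observations. The smallest p was that of Clec4a3, whose FPKM was 41.4, 39.7 and 51.9 (FA) and 36.8, 41.2 and 69.9 (PM2.5) in BM-AΦ and 17.8, 30.5 and 36.9 (FA) and 23.1, 32.3 and 35.8 (PM2.5) in TR-AΦ. The lowest BM-AΦ library, at 36.8 FPKM, was just below the highest of TR-AΦ, at 36.9, and the log2 difference was 0.66 (SE 0.201, adjusted p = 0.288). Summed classical monocyte markers were also higher in BM-AΦ, at 195 to 421 FPKM against 128 to 208 in TR-AΦ, and interstitial macrophage markers were at 56.8 to 358 against 28.2 to 94.7, and their part was not tested. Between CD45.1 and CD45.2 monocytes none of the 9 genes passed (0.669% of all genes did) and none had an unadjusted p under 0.05. The smallest p there was that of Clec5a (-0.67, SE 0.367, adjusted p = 0.624).

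Differences of differences were tested as well. None of the 9 genes passed for exposure by time in TR-AΦ (0.0079% of all genes did), exposure by origin in AΦ (0.0158%), cell type by time in CD45.2 cells (7.88%) or cell type by origin at 32-weeks (1.08%). With an unadjusted p under 0.05 there was 1 gene, Clec4a2 in cell type by time (-0.75, adjusted p = 0.194), a comparison in which 20.3% of all genes had such a p.

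The adaptors, kinases, phosphatases and the NF-κB arm of these receptors form a list of 22 genes, all of which could be tested. In AΦ 1 of the 22 was higher and 17 lower than in CD45.2 monocytes at 4-weeks. At 32-weeks the counts were 1 and 13 in CD45.2 cells and 2 and 16 in CD45.1 cells. Of all genes, 22.6% were higher and 25.5% lower in the first comparison, then 23.6% and 23.7%, and last 27.1% and 23.8%. The median log2 difference of the list was -0.81, -0.47 and -0.64, against -0.02, 0 and 0.03 over all genes. Fcer1g, which encodes the adaptor of Clec4n, Clec4d and Clec4e, was lower at 4-weeks (492 against 942 FPKM, -0.95, adjusted p = 4.66e-07) and in CD45.1 cells (-0.48, adjusted p = 0.00251), while it had -0.03 (adjusted p = 0.909) in CD45.2 cells at 32-weeks. The change of this difference with time passed (0.92, SE 0.179, adjusted p = 0.00138). Tyrobp, the adaptor of Clec5a, had -0.62 (adjusted p = 1.46e-05), -0.14 (adjusted p = 0.269) and -0.50 (adjusted p = 0.000231). The kinase gene Syk was lower in all 3 (-0.48, -0.55 and -0.61). The phosphatase gene Ptpn6 was lower at 4-weeks (-0.87, adjusted p = 0.00381) and had 0.19 and -0.15 at 32-weeks. Card9, which links Syk to NF-κB, was higher in AΦ at 32-weeks in CD45.2 cells (0.45, adjusted p = 0.0081) and CD45.1 cells (0.46, adjusted p = 0.00639). The largest falls were those of Vav3, an exchange factor, at 4-weeks (-2.18, adjusted p = 2.13e-11), and of Rel, an NF-κB subunit, at 32-weeks (-1.89 in CD45.2 and -2.04 in CD45.1 cells). Src was the kinase gene with the largest rise, at 4-weeks (0.91, adjusted p = 0.00333) and in CD45.1 cells (0.81, adjusted p = 0.00784), and was lower in CD45.2 cells at 32-weeks (-0.65, adjusted p = 0.0308). Of the 22 genes, the difference between the cell types changed upward with time for 5, Fcer1g and Tyrobp among them, and downward for Src (-1.56, adjusted p = 0.00474). Over all genes tested, 7.88% passed in either direction for this change. The 4-weeks monocytes in this change include the 2 libraries with neutrophil markers. Values without these libraries were not followed for the genes of the lists, and the part of such cells was not tested.

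With time, 0 of the 22 passed in TR-AΦ of FA mice and 1 in those of PM2.5 mice, namely Nfkb1 (-0.66, adjusted p = 0.0357). The share of all genes that passed was 0.782% and 1.05%. In CD45.2 monocytes of FA mice 1 was higher, Src (1.78, adjusted p = 0.0247), and 7 were lower, with the largest fall in Malt1, the partner of Card9 and Bcl10 (-2.23, adjusted p = 0.00374), and 0 passed in PM2.5 mice. Over all genes 7.21% passed in these monocytes of FA mice and 2.42% in those of PM2.5 mice. None of the 22 passed in the comparisons of exposure, of BM-AΦ with TR-AΦ, or of CD45.1 with CD45.2 monocytes.

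Of 26 other C-type lectin genes, 15 could be tested between the cell types and within monocytes and 13 within AΦ. In AΦ 7 were higher and 4 lower than in CD45.2 monocytes at 4-weeks, 6 and 7 at 32-weeks, and 8 and 6 in CD45.1 cells. Over all genes, 22.6% were higher and 25.5% lower in the first comparison, then 23.6% and 23.7%, and last 27.1% and 23.8%. The largest rise was that of Ly75 (DEC-205, an endocytic receptor), at 4.90, 4.44 and 4.95, and the largest fall that of Cd209a (a DC-SIGN relative), at -3.38, -5.02 and -3.86. The difference between the cell types in CD45.2 cells changed downward with time for 6 of the 15 and upward for 0. Over all genes tested, 7.88% passed for this change in either direction. With time, Clec12b fell in TR-AΦ of FA mice (-2.02, adjusted p = 0.00727) and Clec2d, a ligand of NK cell receptors, in those of PM2.5 mice (-2.44, adjusted p = 0.0144), with 2 and 3 genes falling and 0 rising. The share of all genes that passed there was 0.782% in FA and 1.05% in PM2.5 mice. Mrc1, the mannose receptor, rose in CD45.2 monocytes of FA (3.32, adjusted p = 0.0137) and PM2.5 mice (3.37, adjusted p = 0.0294), in which 2 genes rose each, and Olr1, the receptor for oxidized LDL, was 1 of 2 that fell in FA mice (-2.76, adjusted p = 0.0181). In these monocytes 7.21% of all genes passed in FA and 2.42% in PM2.5 mice. The interstitial macrophage markers, at 107 to 601 FPKM in CD45.2 monocytes at 4-weeks and 1079 to 4115 at 32-weeks, moved with Mrc1, and their part was not tested. Of the 15 genes 1, Cd209f, was lower in CD45.1 than in CD45.2 monocytes (-2.50), where 0.669% of all genes passed. None passed between BM-AΦ and TR-AΦ or for exposure.

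The levels of the 12 groups were set in order for each gene, and the neighbours in that order were asked for overlap. Of the 11 neighbouring pairs 2 were apart for Clec4a1, 1 each for Clec4d, Clec4e and Clec4n, and 0 for the other 5 genes. The same count was not made over all genes, so whether these numbers are usual is not known. For Clec4a1 a gap lay between CD45.2 monocytes of FA mice at 32-weeks (mean 93.9 FPKM) and TR-AΦ of PM2.5 mice at 4-weeks (6.83). The other lay within AΦ at 32-weeks, between BM-AΦ of PM2.5 mice (2.15) and TR-AΦ of FA mice (1.03). For Clec4d the gap lay within CD45.2 monocytes, between FA mice at 4-weeks (22.9) and PM2.5 mice at 32-weeks (11.6). For Clec4n the gap lay between TR-AΦ of PM2.5 mice at 32-weeks (mean 147 FPKM) and CD45.2 monocytes of FA mice at 32-weeks (35.7), and for Clec4e between CD45.2 monocytes (55.7) and BM-AΦ (20.8), both of PM2.5 mice at 32-weeks. AΦ at 4-weeks reached the level of monocytes at 32-weeks for Clec4e, with a range of 49.2 to 135 against 48 to 287 FPKM.

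As a description over the 36 libraries, which share cell type and library, the genes with the highest Pearson r to Clec4a1 were Fyb (0.989), Smad3 (0.987) and Eif4e3 (0.986), and to Clec4n Cd164 (0.956), Dmxl2 (0.952) and Nt5e (0.951). Clec4e was most like Eif1 (0.943), Gm37498 (0.943) and Pim1 (0.936), and Clec4d most like Cd14 (0.921), Ist1 (0.913) and Dhx40 (0.903). Clec7a was most like Mdh1 (0.917) and Cyp4v3 (0.917), Clec12a most like St8sia4 (0.954), Fam49a (0.942) and Acer3 (0.941), and Clec4a3 most like Rap1a (0.911), Ptprc (0.905) and Lims1 (0.905). The values were lower for Clec5a, with Rars (0.83), Lars (0.814) and Hmmr (0.812), and for Clec4a2, with Ms4a6d (0.756), Plekha1 (0.729) and Tigd2 (0.72). Among the 9 genes themselves, deviations from the group means had an r of 0.626 in AΦ and 0.899 in monocytes for the neighbours Clec4d and Clec4e, of 0.228 and 0.912 for Clec4a1 and Clec4a3, and of 0.833 in AΦ for Clec4e and Clec4n.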

How the data were processed

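RNA was sequenced from sorted AΦ and monocytes in 36 libraries, 3 in each of 12 groups, and p-values measure the spread between these libraries. Groups of different sorted cells may share mice, which the labels do not tell. The authors trimmed the reads, aligned them with STAR to mm10 with the GENCODE annotation, and computed the deposited FPKM with Cufflinks. FPKM are scaled for depth and gene length, so depth and counting error are unknown, and the strand setting of the counting is not given in the sources used here. Values were taken as log2(FPKM + 1) and tested with limma 3.58.1 in R 4.3.3, with 1 mean per group, a trended variance and Benjamini-Hochberg adjustment over all genes that averaged 1 FPKM or more (12665 in AΦ, 12856 in monocytes, 13307 in both), at a threshold of 0.05, in 19 comparisons. The model was tested on simulated data. The 9 genes and the lists of related genes and markers were chosen with earlier results of these data known. Log2 differences of the 9 genes are printed where the adjusted p was under 0.05, where groups did not overlap, for the smallest p, and where an interval is given because the threshold was missed. From the lists, the direct adaptors, kinases and phosphatases are named together with the largest rise and fall that passed, and likeness is given for the 3 genes with the highest r, apart from a gene that is not reported here. For changes of differences, Fcer1g, Tyrobp and Src were named after their values were seen. Same-numbered libraries were checked for pairing by the correlation of their deviations from group means, which was not over 0.1 for every pair in any comparison. By this rule libraries were treated as unpaired, which does not exclude pairing. For exposure in CD45.2 monocytes at 4-weeks, same-numbered pairs had 0.0714 to 0.209 and other pairs at most 0.0395. The values were 0.0413 to 0.0909 against 0.023 for exposure in CD45.1 monocytes. For time in CD45.2 monocytes of PM2.5 mice they were 0.03 to 0.102 against 0.0162. Alternatives were a pseudocount of 0.1, no filter, quantile normalization, only the libraries compared, a replicate block, a term for the libraries numbered 2 and leaving out each library. Leaving out both 4-weeks monocyte libraries with neutrophil markers was chosen after seeing the data. Promoter sequences are from RefSeq (GRCm38.p6). Plots were made in Python 3.11.15 with matplotlib 3.10.9.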

Additional observations from a re-analysis of the deposited data

How the results depend on the processing

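Of the 19 comparisons, the number of the 9 genes that passed stayed within 1.5 times of the main value under all alternatives for 14. Direction was followed only for genes that passed or whose groups did not overlap in a comparison. None of these differences changed direction. In a model of only the libraries compared, 0 genes passed for time in TR-AΦ of FA mice, TR-AΦ of PM2.5 mice and CD45.2 monocytes of PM2.5 mice (Clec4e adjusted p = 0.119, 0.182 and 0.127). Same-numbered libraries did not all correlate over 0.1 in any comparison, but in some monocyte comparisons every same-numbered pair was above every other pair. The labels do not say what a number marks. Red cell markers were highest in the library numbered 2 in all 8 groups at 32-weeks (17.7 to 85.7 FPKM, against 0 to 19.5 in the other libraries of that time point). With the replicate number as a block, 4 genes passed for time in CD45.2 monocytes of FA mice in place of 0, namely Clec4a1, Clec4a3, Clec4e and Clec7a, and with the number within exposure and time as a block, 1 gene (Clec5a) passed between CD45.1 and CD45.2 monocytes in place of 0. Without both 4-weeks monocyte libraries with neutrophil markers, 0 genes passed for time in CD45.2 monocytes of PM2.5 mice. Leaving out 1 library at a time gave 0 to 1 genes for time in CD45.2 monocytes of FA mice and 0 to 1 in those of PM2.5 mice. The cause of these changes was not tested, apart from the fewer libraries in the fits that leave some out. The comparisons of AΦ with monocytes gave 7 to 8 genes. At 4-weeks Clec5a was gained in a model of only the libraries compared. At 32-weeks in CD45.2 cells Clec4a2 was gained with the replicate number as a block (adjusted p = 0.0378), with the number within exposure and time as a block (adjusted p = 0.0405) and with a term for the libraries numbered 2. In CD45.1 cells Clec4a3 was lost without the filter on low values. Leaving out 1 library at a time changed the calls of these same genes.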
